A study of Homo sapiens with 17 samples.

Results

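The genes described here make the small nuclear RNAs (snRNAs) and small nucleolar RNAs (snoRNAs). They were taken as all genes of biotype snRNA or snoRNA in the GENCODE 29 annotation that held 20 or more reads summed over all 17 libraries, and 654 of the 2852 genes of these biotypes met that rule, out of 58278 genes in the count tables. The members were thus chosen by their total number of reads over all libraries and by no contrast. RNU6-1 and the SNORA genes were named in the rule with earlier results of these data known, so the statistics given for them are no independent support. Of the members, 402 were snRNA genes and 252 snoRNA genes. By symbol, 33 were snRNA genes proper (RNU1-1, RNU4-1, the RNVU1 variants of U1 and the like), 358 were copies of snRNA genes with a pseudogene symbol, 11 were snRNA genes with no such symbol, 71 were SNORA genes, 80 were SNORD genes, 4 were SCARNA genes and 97 were snoRNA genes without any of these symbols.

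All libraries came from MOLM13, a human acute myeloid leukaemia cell line that carries the MLL-AF9 fusion, and all belonged to CRISPR knockout experiments. In the first experiment a non-targeting control (NT, 3 libraries) stood beside a knockout of the homeobox factor gene HOXA9 (HOXA9_KO, 3 libraries) and of SAFB, the gene of scaffold attachment factor B (SAFB_KO, 3 libraries). In the second, a non-targeting control (NT_MEIS1ex, 4 libraries) stood beside a knockout of MEIS1, the gene of a homeobox cofactor of HOXA9 (MEIS1_KO, 4 libraries). The labels do not say which guides were used, how long after editing the cells were collected, or whether a knockout was a pool or a clone. Nothing in them tells whether replicate libraries started from different cultures, and the p-values therefore cover only library-to-library spread, which may be technical. Total RNA was depleted of ribosomal RNA and sequenced in a strand-specific protocol.

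The spliceosome removes introns with 5 snRNAs: U1 pairs with the 5′ splice site, U2 with the branch point, and U4, U5 and U6 join as a complex in which U6 unwinds from U4 to form the catalytic centre. U11 and U4atac (RNU11, RNU4ATAC) serve a minor spliceosome. RNA polymerase II transcribes most snRNAs, and RNA polymerase III transcribes U6. Box C/D snoRNAs (SNORD) guide 2′-O-methylation and box H/ACA snoRNAs (SNORA) guide pseudouridylation, mainly of ribosomal RNA, while Cajal body RNAs (SCARNA) guide the same changes in snRNAs. Most human snoRNAs are cut from introns of host genes and trimmed, whereas U3 (SNORD3A) has its own promoter. The silica columns used for this RNA retain fragments below about 200 nucleotides poorly, so these libraries hold only a part of the small RNAs.

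Counts assigned to genes came to 30.7 M to 67.8 M (M for 1000000 reads) per library in the first experiment and 23.3 M to 33.2 M in the second. Levels are given in CPM, counts per 1000000 of a library's assigned reads after scaling of library sizes by trimmed means (TMM) within each experiment. HOXA9 had 40.1 to 42.0 CPM in NT and 21.1 to 21.9 in HOXA9_KO, SAFB had 33.6 to 40.9 in NT and 19.4 to 22.2 in SAFB_KO, and MEIS1 had 31.7 to 33.4 in NT_MEIS1ex and 10.3 to 12.8 in MEIS1_KO. MEIS1 was also lower in HOXA9_KO, with 16.1 to 17.7 CPM against 48.4 to 50.4 in NT. An edited gene can still be transcribed, so these levels are only a partial check of the labels. Of the myeloid and leukocyte markers CD33 held 58.4 to 112 CPM over all libraries and PTPRC 201 to 520, while the lymphoid CD3E, the erythroid HBB and HBA1 and the epithelial EPCAM held at most 0.0432. In HOXA9_KO 7 of 8 myeloid markers rose and 1 fell, FLT3. Of the lymphoid markers 2 were tested and both fell, among them CD3D, from a mean of 0.874 to 0.0921 CPM. Of the erythroid and megakaryocyte list 1 was tested and fell (GP9, from 0.656 to 0.0619), and of the epithelial and stromal list 2 of 3 tested rose, KRT8 and PECAM1, which leukocytes also express. Their part in the results below was not tested. Among the reads examined for assignment, those outside any gene made up 17.04% ± 0.957 (SD, n = 3) of the NT reads, 9.02% ± 0.325 (n = 3) of the HOXA9_KO reads and 11.6% ± 1.05 (n = 3) of the SAFB_KO reads, and 7.30% ± 0.993 (n = 4) and 8.25% ± 0.685 (n = 4) in NT_MEIS1ex and MEIS1_KO. Mitochondrial ribosomal RNA took 25.1% (NT), 33.9% (HOXA9_KO) and 25.7% (SAFB_KO) of assigned reads, and almost none in the second experiment.

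The sequences of 7 members show what the reads were assigned to, each 5′ to 3′ on the strand of the gene as annotated in GENCODE 29, with GRCh38 coordinates. RNU6-1016P (chr6:75644084-75644177, plus strand) is printed because it was the only snRNA copy that fell in HOXA9_KO with a mean of 1 CPM or more in a group. U6 meets the 5′ splice site with the stretch ACAGAGA, and capitals mark the ATAGAGA that the copy holds.
RNU6-1016P: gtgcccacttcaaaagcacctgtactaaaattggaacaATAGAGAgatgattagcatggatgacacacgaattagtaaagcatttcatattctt
Among the 252 U6 members with a pseudogene symbol, 137 (54.4%) held ACAGAGA on their strand. In U1 (RNU1-1, chr1:16514122-16514285, minus strand) capitals mark the stretch that pairs with the 5′ splice site.
RNU1-1: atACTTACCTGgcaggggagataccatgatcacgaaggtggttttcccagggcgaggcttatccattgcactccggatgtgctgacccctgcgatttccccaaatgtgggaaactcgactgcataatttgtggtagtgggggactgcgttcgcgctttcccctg
For the box H/ACA RNAs capitals mark the ACA near the 3′ end. SNORA53 (chr12:98599635-98599883, plus strand) and SNORA73B (chr1:28508559-28508762, plus strand) are printed because they rose, and SNORA79B (chr14:20323179-20323326, minus strand) because it fell.
SNORA53: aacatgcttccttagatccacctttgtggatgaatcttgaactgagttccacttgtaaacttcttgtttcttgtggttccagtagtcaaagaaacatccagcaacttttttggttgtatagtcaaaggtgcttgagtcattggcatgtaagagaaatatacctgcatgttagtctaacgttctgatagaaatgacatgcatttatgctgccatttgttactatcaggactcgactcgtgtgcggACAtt
SNORA73B: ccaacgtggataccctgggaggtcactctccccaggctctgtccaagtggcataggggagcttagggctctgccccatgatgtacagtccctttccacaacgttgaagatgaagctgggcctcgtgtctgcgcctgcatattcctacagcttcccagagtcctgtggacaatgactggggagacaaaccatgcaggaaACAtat
SNORA79B: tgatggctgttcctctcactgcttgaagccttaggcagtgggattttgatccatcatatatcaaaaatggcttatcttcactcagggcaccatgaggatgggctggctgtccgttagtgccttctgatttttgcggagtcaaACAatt
For the box C/D RNAs capitals mark ATGATGA near the 5′ end, a form of box C, and CTGA near the 3′ end, box D. SNORD93 as annotated holds only the CTGA. SNORD17 (chr20:17962710-17962946, minus strand) rose and SNORD93 (chr7:22856613-22856686, plus strand) fell.
SNORD17: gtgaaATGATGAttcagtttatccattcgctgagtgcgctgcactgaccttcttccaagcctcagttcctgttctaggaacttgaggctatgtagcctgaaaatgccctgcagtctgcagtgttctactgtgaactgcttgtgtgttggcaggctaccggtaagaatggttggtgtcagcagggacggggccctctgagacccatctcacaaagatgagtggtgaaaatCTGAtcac
SNORD93: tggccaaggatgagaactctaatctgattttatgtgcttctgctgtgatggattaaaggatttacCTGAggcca
On the gene's strand, ACA stood 3 bases before the annotated end in 53 of 71 SNORA members (74.6%) and in 111 of 147 annotated SNORA genes (75.5%). TGATGA in the first 30 bases together with CTGA in the last 20 was found in 57 of 80 SNORD members (71.3%) and in 193 of 278 annotated SNORD genes (69.4%). The members held these letters about as often as the annotation as a whole.

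RNU6-1, a U6 gene, showed the largest difference of any member in HOXA9_KO. It had 0.392, 0.158 and 0.434 CPM in the NT libraries and 31.8, 30.6 and 29.8 CPM in the HOXA9_KO libraries. In reads these were 29, 8 and 20 against 958, 985 and 1103, so the groups lay far apart. The HOXA9_KO libraries lay close together, while the NT libraries, on few reads, spread more widely for their level (mean 0.328 CPM, SD 0.149). The log2 fold change was 6.51 ± 0.15 (SE; adjusted p = 5.91e-37, edgeR's quasi-likelihood test with Benjamini-Hochberg adjustment over all genes). Here and below, the SE of a log2 fold change was its size divided by the square root of the test's F statistic. It was not estimated directly from the spread and may be too small where reads are few. SAFB_KO stood at 0.684, 0.471 and 0.877 CPM, all above NT, with a log2 fold change of 0.98 ± 0.28 and an adjusted p of 0.00466. That call was lost without the second NT library (0.68, adjusted p = 0.0522) and without the third SAFB_KO library (0.74, adjusted p = 0.0701). In the second experiment the direction was the opposite. NT_MEIS1ex held 0.714, 0.880, 0.746 and 0.653 CPM (20, 24, 20 and 21 reads) and MEIS1_KO 0.164, 0.107, 0.335 and 0.258 (5, 3, 9 and 6 reads). The groups did not overlap, and RNU6-1 fell by 1.79 ± 0.32 on the log2 scale (adjusted p = 0.00176). In bulk RNA, fewer cells of a type and less RNA per cell cannot be told apart, here and in the results that follow.

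The annotation holds 7 genes with the same sequence as RNU6-1, itself included. RNU6-2 had a mean of 0.0748 CPM in NT and 0.217 in HOXA9_KO, and RNU6-5P 0.239 and 0.143. Neither had enough reads to be tested, and RNU6-9, RNU6-3P, RNU6-4P and RNU6-6P held 10 to 17 reads over all libraries, below the rule's minimum. Reads of identical copies cannot be assigned by sequence alone, and the authors' handling of such reads was not stated in what was used here. The counting summary lists 0 reads with several alignments in every library. The rise was therefore listed at 1 of 7 identical genes. RNU6-1 lies antisense to AC009292.2, which held 6 reads in all. The nearest genes on the lower-coordinate side of it were SKOR1, 5378 bases away, with a log2 fold change in HOXA9_KO of 0.47 (adjusted p = 0.393), and MAP2K5, 32816 bases away, with 0.22 (adjusted p = 0.0382). On the other side PIAS1, 214134 bases away, had 0.32 (adjusted p = 4.56e-10) and AC107871.1, 343987 bases away, had −0.84 (adjusted p = 5.95e-06). None of these 4 genes moved by a comparable amount.

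The 5 tested genes whose log2 CPM followed RNU6-1 most closely over the 9 libraries of the first experiment were HMOX1 (Pearson r = 0.998), MYBPH (0.997), DMXL2 (0.996), MANBA (0.995) and CYP27A1 (0.995). These correlations share the contrast between HOXA9_KO and the other 6 libraries and are a description. HMOX1, which encodes haem oxygenase, had a mean of 1.33 CPM (NT), 17.2 (HOXA9_KO) and 1.86 (SAFB_KO). CYP27A1, a sterol hydroxylase, had 0.313, 10.4 and 0.637.

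In HOXA9_KO 31 of the 208 tested members were called higher (14.9%) and 42 lower (20.2%). Over all 18876 genes tested the shares were 27.6% and 29.9% (57.5% in either direction), so a smaller share of the members was called in either direction. The median log2 fold change was −0.34 over the tested members and −0.07 over all genes. The 3 libraries of each group did not overlap in 86 members, 32 higher and 54 lower, which is 41.3% against 62.6% of all genes. The directions divided by kind of gene. Of 27 tested snRNA genes proper 14 rose (51.9%) and 0 fell (median log2 fold change 0.47). Of 65 tested snRNA copies 4 rose (6.15%) and 19 fell (29.2%, median −0.71). Of 21 tested snoRNA genes without a symbol 0 rose and 8 fell (38.1%, median −1.02). SNORA genes stood at 6 higher (14.0%) and 7 lower (16.3%) of 43 (−0.21), SNORD genes at 4 (8.89%) and 7 (15.6%) of 45 (−0.16). SCARNA genes had 2 higher and 0 lower of 4 (0.26). The falls of the copies were thus close to the share of all genes, and those of SNORA and SNORD genes lay below it. Level is taken up below, and its part in this division was not tested. Among the 3 tested snRNA genes with no symbol of these kinds, 1 rose and 1 fell.

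**Figure D1:**
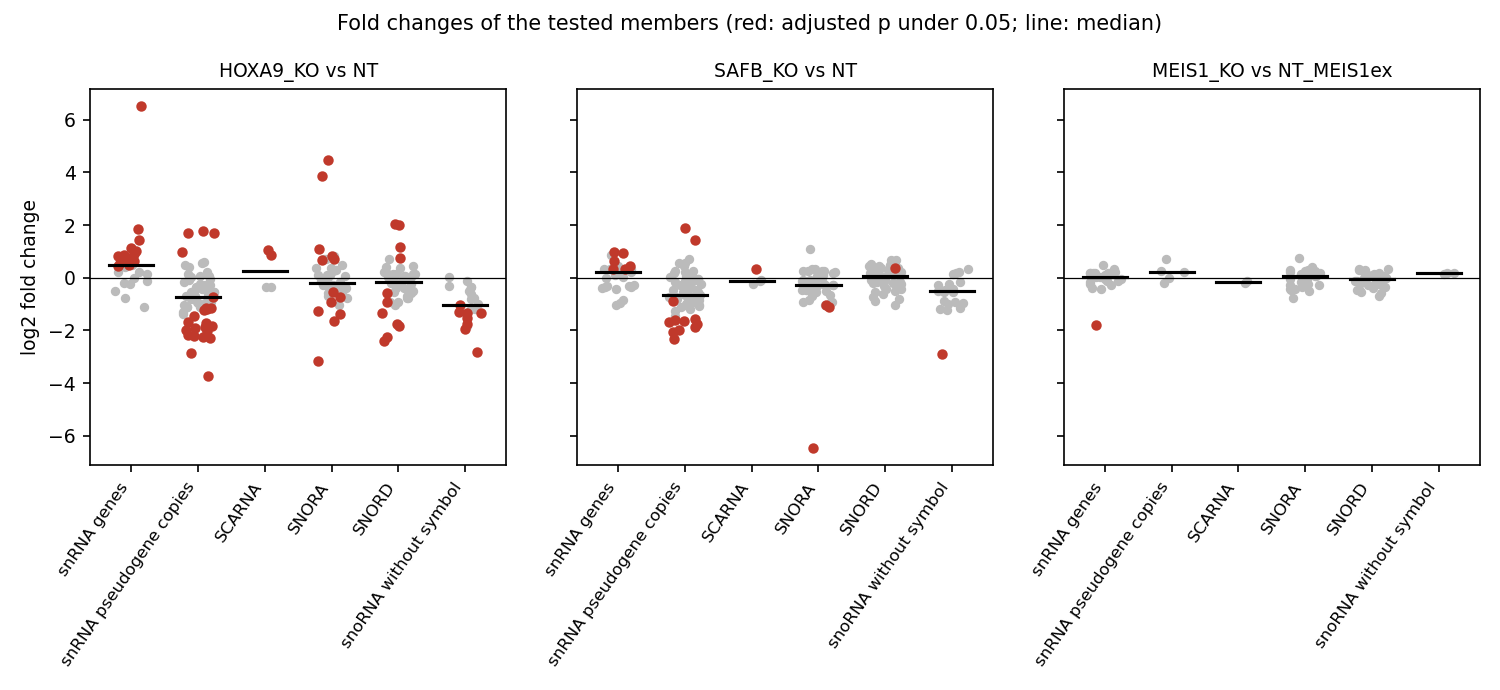
Log2 fold change of every tested member (vertical axis) by kind of gene (horizontal axis) in HOXA9_KO, SAFB_KO and MEIS1_KO, each against its own non-targeting libraries. Red points passed the test and horizontal lines are medians: in HOXA9_KO the line of the snRNA genes lies at 0.47 and that of the snRNA copies at −0.71.

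The scaling bears on this split. With nuclear protein-coding reads as the base of the scaling, the median of all genes in HOXA9_KO moved from −0.07 to −0.32, and the members called became 23 higher and 65 lower, with 8 and 2 for the snRNA genes proper. Over all genes, 23.5% of the called genes were then higher, against 48.0% before. A rise smaller than this shift, such as that of the host PHB2 given below (0.17), or of genes in the pathway lists, has no settled sign. RNU6-1, SNORA53, SNORA74A, SNORD17, SNORD3A, RNU1-1, RNU11, RNU5E-1 and SCARNA10 were called higher under either scaling.

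Every U1 gene that was tested and shares the sequence printed for RNU1-1 rose in HOXA9_KO. RNU1-1 had 0.541, 0.454 and 0.348 CPM in NT and 2.45, 1.06 and 1.51 in HOXA9_KO, with no overlap between the groups and a log2 fold change of 1.86 ± 0.30 (adjusted p = 4.77e-07). RNU1-2 had a log2 fold change of 1.005, RNU1-27P of 1.78, RNU1-28P of 1.70, RNVU1-18 of 0.74 and RNVU1-29 of 0.56. These 6 and the untested RNU1-3 and RNU1-4 (52 and 34 reads) are identical, so how the reads divide among them is uncertain. Of the U1 variants with other sequences, RNVU1-27 rose by 0.63, RNVU1-28 by 0.59 and RNVU1-15 by 0.45 on the log2 scale. With scaling to protein-coding reads RNVU1-29 (0.31, adjusted p = 0.0648), RNVU1-28 (0.34) and RNVU1-15 (0.20) no longer passed. RNU1-28P and RNVU1-28 lost their calls without the second HOXA9_KO library and RNVU1-15 without the third. RNVU1-4 had −1.12 (adjusted p = 0.0659) and RNVU1-3 had −0.77 (adjusted p = 0.135), neither past the test.

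Of the U5 genes, RNU5E-1 had 2.75, 2.41 and 2.19 CPM in NT and 5.83, 5.41 and 4.81 in HOXA9_KO, a log2 fold change of 1.11 ± 0.14 (adjusted p = 1.39e-09). RNU5A-1 rose by 0.90 (adjusted p = 0.00398), with a range of 1.14 to 2.58 CPM in HOXA9_KO that overlapped the 0.782 to 1.20 of NT, and its call was lost without the second HOXA9_KO library. RNU5F-1 rose by 0.47 (adjusted p = 0.0251), a call lost with scaling to protein-coding reads (0.22) and without 4 of the 6 libraries of these groups when each was left out in turn. The log2 fold changes of RNU5B-1 (0.41) and RNU5D-1 (0.15) did not pass the test. RNU11, the U11 RNA of the minor spliceosome, had 1.10, 0.789 and 0.782 CPM in NT and 2.65, 2.30 and 2.35 in HOXA9_KO (log2 fold change 1.43 ± 0.22, adjusted p = 1.76e-07). RNU4ATAC, also of the minor spliceosome, rose by 0.88 (adjusted p = 0.0114), a call lost with that scaling (0.63, adjusted p = 0.0666) and without the first NT or the third HOXA9_KO library. RNU4-1, a U4 gene, had 0.541, 0.395 and 0.717 CPM in NT and 0.796, 0.840 and 1.24 in HOXA9_KO. Its log2 fold change of 0.81 (adjusted p = 0.0406) lost its call with scaling to protein-coding reads, with no filter on low counts, and without the first or second NT library or the third HOXA9_KO library. RNU4-2 had 0.55 and did not pass (adjusted p = 0.0881).

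**Figure D2:**
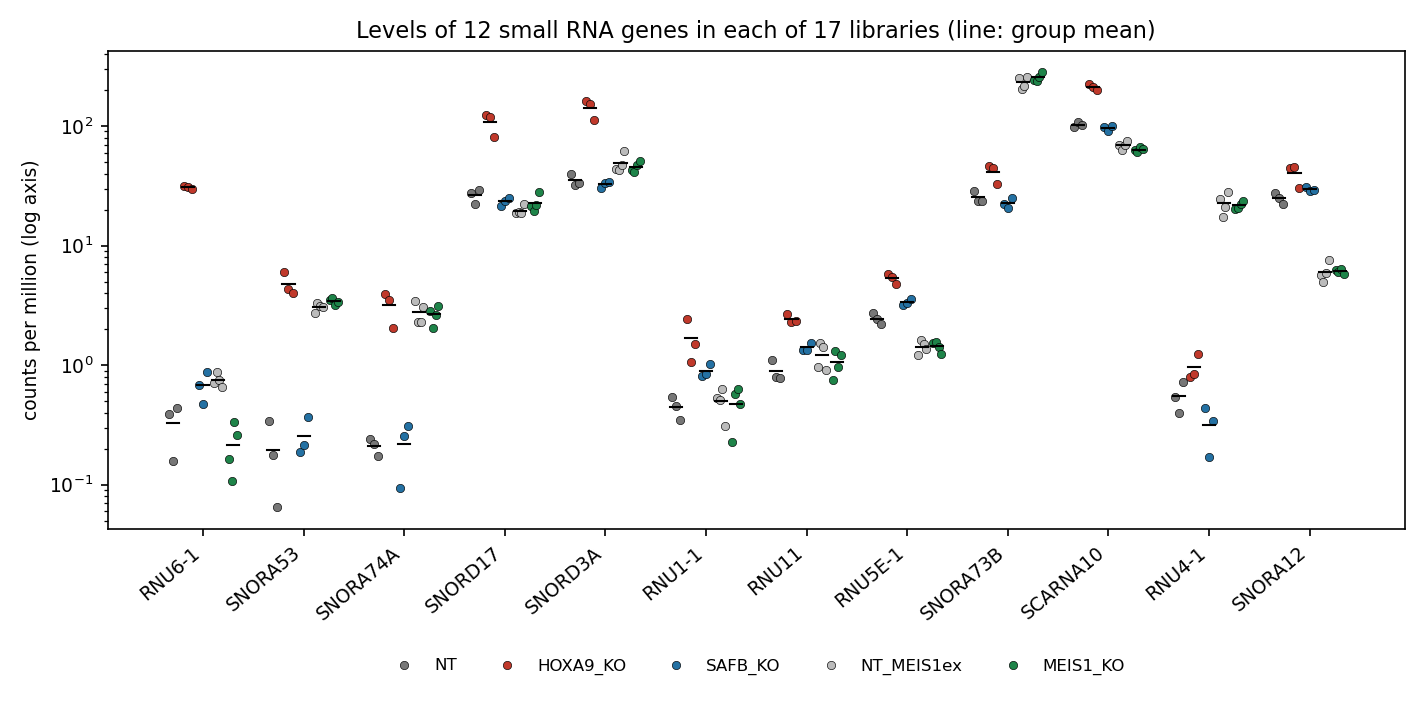
CPM (vertical axis, log scale) of 12 members in each of the 17 libraries, by group, with a line at the mean of each group. The HOXA9_KO points of RNU6-1 lie between 29.8 and 31.8 and its NT points between 0.158 and 0.434.

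Among the snoRNAs a few members rose by large factors in HOXA9_KO. SNORA53 had 0.338, 0.178 and 0.0652 CPM in NT and 5.97, 4.36 and 3.97 in HOXA9_KO, a log2 fold change of 4.47 ± 0.29 (adjusted p = 5.99e-18). SNORA74A had 0.243, 0.217 and 0.174 CPM in NT and 3.94, 3.52 and 2.03 in HOXA9_KO, a log2 fold change of 3.85 ± 0.31 (adjusted p = 3.07e-15). For both, every HOXA9_KO library stood above every NT library. SNORD17 had 27.8, 22.4 and 29.3 CPM in NT and 125, 119 and 81.7 in HOXA9_KO (2.03 ± 0.19, adjusted p = 8.75e-05). SNORD3A, the U3 RNA that takes part in the processing of 18S ribosomal RNA, had 39.3, 32.3 and 33.6 CPM in NT and 161, 154 and 111 in HOXA9_KO (2.01 ± 0.16, adjusted p = 3.51e-05). In both genes the third HOXA9_KO library was the lowest of its group and still above all of NT. SNORD3C, a further U3 gene, rose by 1.17, whereas SNORD3B-1 (0.15) and SNORD3B-2 (0.13) did not pass the test.

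The Cajal body RNA SCARNA10 had 97.4, 108 and 102 CPM in NT and 226, 210 and 199 in HOXA9_KO. Its log2 fold change was 1.05 ± 0.05 (adjusted p = 3.55e-15), a small standard error beside those of the rarer members. SCARNA12 rose by 0.87 ± 0.08 (adjusted p = 1.32e-08), SNORA74D by 1.09 ± 0.13 (adjusted p = 2.41e-10) and SNORA5C by 0.83 (adjusted p = 2.71e-05). SNORA73B, the U17 RNA that acts in ribosomal RNA processing, had 28.5, 23.6 and 23.8 CPM in NT and 46.2, 44.4 and 32.9 in HOXA9_KO (0.69 ± 0.15, adjusted p = 0.00723). SNORA12 rose by 0.68 (adjusted p = 0.0115), a call that was lost with scaling to protein-coding reads (0.43, adjusted p = 0.0609). The third HOXA9_KO library was again the lowest of its group for SNORA73B and SNORA12. SNORD15B rose by 0.73.

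The falls in HOXA9_KO lay mostly in members of low level, 38 of 42 of them with a mean under 1 CPM over the 9 libraries of the experiment. RNU6-1016P, the U6 copy printed above, had 1.68, 2.17 and 1.499 CPM in NT and 0.298, 0.498 and 0.487 in HOXA9_KO, and fell by 2.04 ± 0.29 on the log2 scale (adjusted p = 3.91e-08). It was the only one of the 19 copies that fell with a mean of 1 CPM or more in either group. Of those 19 copies 11 were of U6, 14 lay inside a gene on the same strand and 3 lay antisense to a gene, and their falls ran from 0.74 to 3.71 on the log2 scale. The farthest was RNU6-821P, with 0.338, 0.592 and 0.369 CPM in NT and 0, 0.0311 and 0.0541 in HOXA9_KO. Of the snoRNAs with a mean of 1 CPM or more in the NT libraries alone, the RF00432 gene ENSG00000206878.1 (a snoRNA gene without a symbol) fell by 1.32 (adjusted p = 3.16e-05), SNORD93 by 0.93 (adjusted p = 0.00853), SNORA79B by 0.72 (adjusted p = 0.0102), SNORD116-6 by 0.59 (adjusted p = 0.00268) and SNORA71B by 0.52 (adjusted p = 0.0208). SNORD93 had 0.879, 1.32 and 1.02 CPM in NT and 0.829, 0.529 and 0.351 in HOXA9_KO, and its call was lost without the second NT or the third HOXA9_KO library. The call of SNORA71B was lost without the first NT or the third HOXA9_KO library. SNORD116-6 belongs to the imprinted SNORD116 cluster, of which 22 copies were members and 11 were tested. Of these 0 rose and 3 fell (27.3%), close to the 29.9% of all genes called lower. The groups of SNORD116-6 overlapped, with 3.33, 3.02 and 3.87 CPM in NT and 1.89, 3.05 and 1.84 in HOXA9_KO. Below 1 CPM in NT, SNORA11B fell by 3.15, and SNORD11 and SNORD11B, which lie together inside NOP58, fell by 2.41 and 1.85.

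The directions divided by level as well. The 44 tested members with a mean of 1 CPM or more in the first experiment gave 24 higher and 4 lower, with a median log2 fold change of 0.51, beside 36.8% higher, 32.0% lower and a median of 0.02 for the 13183 genes of that level. The 164 members under 1 CPM gave 7 higher and 38 lower with a median of −0.51, and the 5693 genes under 1 CPM gave 6.25% higher, 25.03% lower and a median of −0.46. The members of low level thus stood close to other genes of low level. A rare member passes the filter on low counts through the group in which it is high, so these counts do not describe all members. Reads outside any gene moved along with these falls, with 17.04% of reads for NT, 9.02% for HOXA9_KO and 11.6% for SAFB_KO, and their part in the falls was not tested.

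As sums, SNORD members took 126 of every 1000000 assigned reads, with no TMM scaling, in NT and 248 in HOXA9_KO, SCARNA members 149 and 221, and SNORA members 95.5 and 104. The snRNA genes proper took 40.8 and 70.4, but 40.5 and 44.5 without RNU6-1. The snRNA copies took 65.5 in NT and 30.4 in HOXA9_KO and the snoRNA genes without a symbol 22.3 and 9.37. The sum over every member was 505 ± 16.8 (SD, n = 3) for NT, 688 ± 63.5 (n = 3) for HOXA9_KO and 433 ± 3.45 (n = 3) for SAFB_KO. Sums are carried by few genes: the 10 members of highest mean CPM held 68.8% of the 353395 member reads.

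Of the members, 377 lay inside a gene on the same strand (316 host genes), 200 lay antisense to a gene, 76 overlapped no gene and 1 overlapped a gene in part. Both member and host were tested in 139 pairs with 112 hosts. Of the 12 members in such pairs that rose in HOXA9_KO, the host was called higher for 5, lower for 5 and neither for 2. Of the 30 that fell, the host was called lower for 20, higher for 6 and neither for 4. Hosts were often called beside uncalled members too. Where the member was not called, the host was lower for 42, higher for 36 and neither for 19. Across the 139 members the Pearson r of member and host log2 fold change was 0.34, where several members share a host and all share the libraries. The median difference of member minus host was −0.30 on the log2 scale.

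Some of the members that rose farthest stood apart from their hosts. SNORD17 lies in an intron of SNX5, which fell by 0.43, and the log2 ratio of SNORD17 to SNX5 went from −2.09 ± 0.24 (SD, n = 3) in NT to 0.36 ± 0.34 (n = 3) in HOXA9_KO. SNORA74A and SNORA74D lie in SNHG4, a noncoding host gene, which fell by 0.27, and the log2 ratio of SNORA74A to it went from −6.86 ± 0.15 to −2.79 ± 0.51. SCARNA10 lies in NCAPD2, a condensin gene, which fell by 0.58. SNORA53 lies in SLC25A3, a mitochondrial phosphate carrier gene, which rose by 0.29, and its log2 ratio went from −10.99 ± 1.14 to −6.49 ± 0.29. Of 6 tested members that overlap an exon of their host, 3 rose and 1 fell. Among them SNORA53 overlaps an exon of SLC25A3 and SCARNA12 an exon of its host PHB2, so reads that fall on both could not be separated here. The same limit holds for RNU11, the 1 member that overlapped a gene in part, an exon on its strand included. SCARNA12 and its host PHB2 both rose, by 0.87 and 0.17, while the host RCC1 of SNORA73B (−0.07, adjusted p = 0.155) and the host CWF19L1 of SNORA12 (−0.02) did not pass the test. Of the hosts of named members that fell, SENP6 (RNU6-1016P) fell by 1.36, SNHG26 (SNORD93) by 0.71 and SNHG17 (SNORA71B) by 0.60. SNHG14 (SNORD116-6) fell by 0.37 and CCNB1IP1 (SNORA79B) by only 0.12. DGLUCY, the host of SNORA11B, did not pass the test (−0.10, adjusted p = 0.0665). SNORA55 fell by 1.36 inside PABPC4, which rose by 0.59. RNU6-831P rose by 1.70 inside DLGAP1, which rose by 1.75. Of the members without a host, RNU5E-1 lies 11320 bases from KIAA2013, which rose by 0.52, and the gene nearest to SNORD3A (AC007952.8) held 0 reads.

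**Figure D3:**
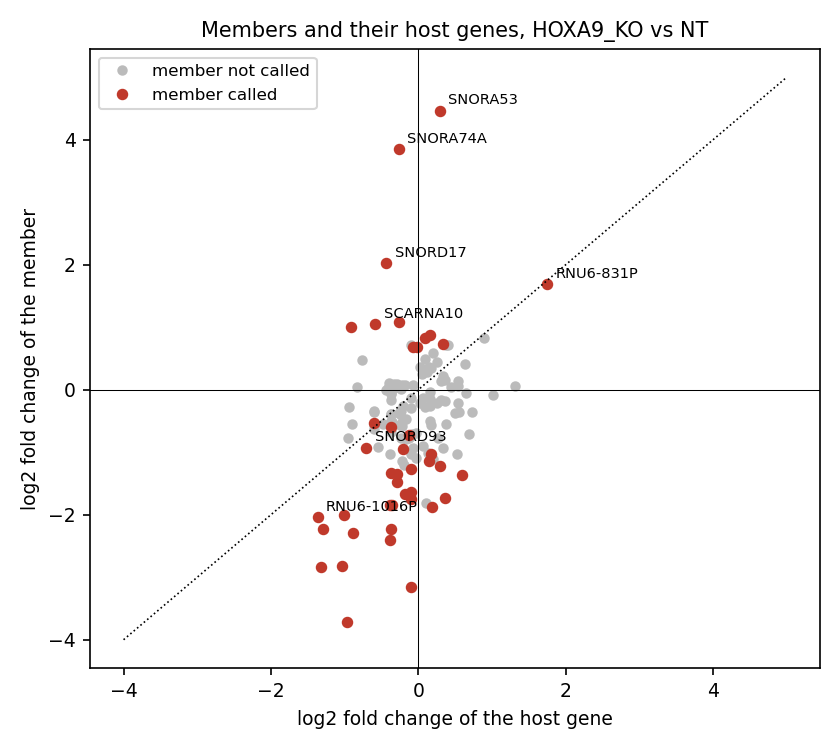
Log2 fold change of each member in HOXA9_KO (vertical axis) against that of the gene it lies in on the same strand (horizontal axis), with a dotted line where they are equal. SNORA53, SNORA74A and SNORD17 lie far above the line, at 4.47, 3.85 and 2.03.

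Annotated length went with direction among SNORA, SNORD and SCARNA members in HOXA9_KO. Of the 12 tested members of 200 nucleotides or more 7 rose and 1 fell, with a median log2 fold change of 0.85. Of 4 members of 150 to 199 nucleotides 1 rose and 1 fell (median 0.48). Of 42 members of 100 to 149 nucleotides 4 rose and 6 fell (median −0.28), and of 34 members under 100 nucleotides 0 rose and 6 fell (median −0.22). Over all genes 27.6% were called higher and 29.9% lower. The rises among members of 200 nucleotides or more (58.3%) lay above that share. The falls of 100 to 149 nucleotides (14.3%) and under 100 (17.6%) lay below it. Over the 92 members Pearson's r of log2 fold change with length was 0.32 and Spearman's rho 0.34, and with the log10 of total reads both were 0.49. The separate parts of length and level in this relation were not tested. In SAFB_KO the r with length was 0.07 (rho −0.09) and in MEIS1_KO 0.09 (rho 0.15, 61 members).

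**Figure D4:**
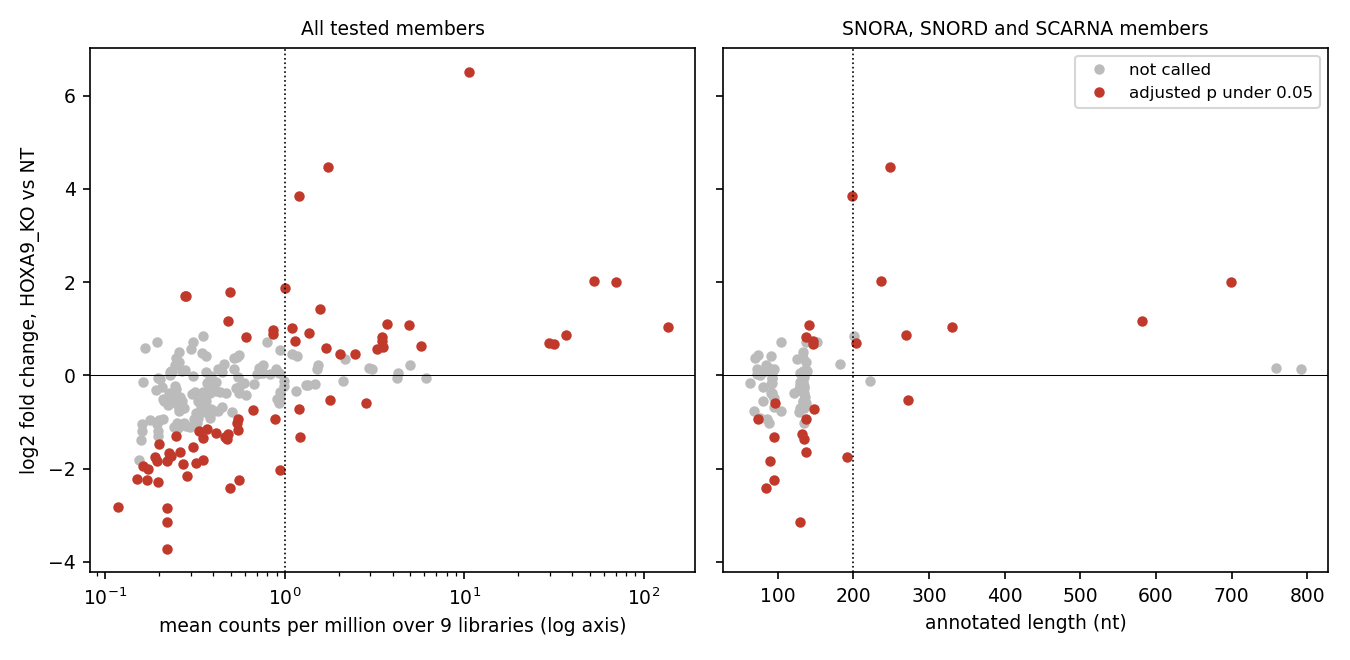
Log2 fold change in HOXA9_KO (vertical axes) against mean CPM (left, log scale, every tested member, dotted line at 1) and against annotated length in nucleotides (right, SNORA, SNORD and SCARNA members, dotted line at 200). Members right of either dotted line lie mostly above 0: 24 higher and 4 lower by level, 7 higher and 1 lower by length.

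In SAFB_KO, 10 of the 208 tested members were called higher (4.81%) and 14 lower (6.73%), against 20.2% and 15.3% of all genes (35.5% in either direction). The median log2 fold change was −0.22 over members and −0.02 over all genes. Non-overlapping groups were seen in 28.4% of the members and 46.3% of all genes. Of the 27 tested snRNA genes proper 6 rose (22.2%, close to the 20.2% of all genes) and 0 fell. The 6 were RNU6-1, RNU1-1 (0.96, adjusted p = 0.0140), RNU11 (0.63, adjusted p = 0.0253), RNU5E-1 (0.44, adjusted p = 0.0142), RNVU1-19 (0.35, adjusted p = 0.0152) and RNVU1-27 (0.32, adjusted p = 0.0303). RNU5E-1 had 3.20, 3.28 and 3.57 CPM in SAFB_KO against 2.19 to 2.75 in NT, with no overlap. SCARNA12 (0.33, adjusted p = 0.00303) and SNORD116-13 (0.38, adjusted p = 0.0179) also rose, as did the copies RNU1-28P (1.41) and RNU6-831P (1.89, in DLGAP1). Without the third SAFB_KO library 1 member was called higher, and without the second or the third NT library 5 were. With scaling to protein-coding reads, which took the median of all genes to −0.16, there were 3 higher and 28 lower. RNU6-1, RNU1-1 and RNU6-831P were the 3 still higher, and RNU11 (0.50), RNU5E-1 (0.30), SCARNA12 (0.19) and SNORD116-13 (0.24) no longer passed.

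The falls in SAFB_KO were 10 snRNA copies, 3 SNORA genes and 1 snoRNA gene without a symbol. The copies were 10 of 65 tested (15.4%), beside 15.3% of all genes called lower. RNU6-1016P had 0.529, 0.471 and 0.792 CPM in SAFB_KO and fell by 1.59 (adjusted p = 4.30e-06). RNU7-18P fell by 2.33 and RNU6-60P by 2.06. SNORA55 fell by 1.10 (adjusted p = 0.0194) and the SNORA75 gene ENSG00000206885.1, inside NCL, by 1.03 (adjusted p = 0.0216). SNORA30, in SRCAP, was at 0 reads in all 3 SAFB_KO libraries, against 45 reads over the NT libraries (25, 11 and 9) and 23 over HOXA9_KO (12, 2 and 9). With a floor of 3 counts set for the SAFB_KO group, its NT level was 10.98-fold that floor. This ratio leaves out the spread of the NT counts. This gene was picked out after its values were seen. By level, 8 of the 44 members of 1 CPM or more rose and 0 fell, and of the 164 below 1 CPM 2 rose and 14 fell. Over all genes of 1 CPM or more 28.3% rose and 17.04% fell, and over those below it 1.44% rose and 11.2% fell. Without the first NT library 9 members were called lower.

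SNORA53, SNORA74A, SNORD17, SNORD3A and SCARNA10, which rose by more than 1 log2 unit in HOXA9_KO, had log2 fold changes of 0.26, 0.07, −0.18, −0.11 and −0.09 in SAFB_KO, none past the test. HOXA9_KO and SAFB_KO share the NT libraries. The libraries of these knockouts were also compared directly. Of the 208 members 24 were higher in HOXA9_KO than in SAFB_KO (11.5%) and 11 lower (5.29%), beside 20.1% and 20.5% of all genes (40.6% in either direction). The groups did not overlap in 25% of the members and 48.3% of all genes. The largest were RNU6-1 (5.54 ± 0.14, adjusted p = 9.64e-34), SNORA53 (4.21), SNORA74A (3.78), SNORD17 (2.21) and SNORD3A (2.12). SNORD93 (−0.84), the RF00432 gene ENSG00000206878.1 (−0.80) and SNORD116-13 (−0.33, adjusted p = 0.0496) were lower. Without the first SAFB_KO library 7 members were lower.

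In MEIS1_KO, 0 of the 92 tested members were called higher and 1 lower (1.09%), RNU6-1, against 4.97% and 3.84% of the 15744 genes tested (8.81% in either direction). At an unadjusted p under 0.05 there were 8 of the 92 members, beside 3725 of the 15744 genes. Without replicate 2 of NT_MEIS1ex or replicate 4 of MEIS1_KO 2 members were called lower. The median log2 fold change was 0.02 over members and 0.00 over all genes, and the groups did not overlap in 7 members (7.61%, against 15.7% of all genes). The members that rose in HOXA9_KO had small differences here: SNORA53 0.17, SNORA74A −0.07, SNORD17 0.20, SNORD3A −0.12, SCARNA10 −0.12, RNU5E-1 0.03 and RNU1-1 −0.06. SNORA53, for example, had 2.75, 3.30, 3.10 and 3.05 CPM in NT_MEIS1ex and 3.51, 3.61, 3.16 and 3.40 in MEIS1_KO. In the 64 member and host pairs tested, 6 hosts were called lower and none of these members was called. The second experiment tested 92 members against 208 in the first, 89 of them in common. It had fewer reads per library, larger groups in the filter on low counts, and a lower share of snRNA copies (24.5 of every 1000000 assigned reads in NT_MEIS1ex, 65.5 in NT), whose parts in that number were not tested.

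The effects of the knockouts were compared across experiments as a difference of differences, each effect taken within its own experiment, over 191 members. HOXA9_KO minus MEIS1_KO gave 21 members higher (10.99%) and 22 lower (11.5%), beside 24.5% and 19.7% of all genes. SAFB_KO minus MEIS1_KO gave 2 higher (1.05%) and 8 lower (4.19%), beside 12.4% and 8.49%. The 22 members became 14 without the third NT library and 12 without the second MEIS1_KO library. The 8 lower members in the SAFB_KO difference became 5 or 4 without replicate 1 or 2 of NT, 1 or 4 of NT_MEIS1ex, or 1, 2 or 3 of MEIS1_KO, and the 2 higher became 1 without any of 6 libraries. RNU6-1 led both, with differences of 8.35 ± 0.38 (adjusted p = 4.48e-19) and 2.78 ± 0.43 (adjusted p = 1.38e-05) on the log2 scale. Knockout and experiment cannot be told apart in the size of these differences.

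The genes that make, mature and degrade these RNAs were read from 8 lists chosen with earlier results known. Over all genes 27.6% were called higher and 29.9% lower in HOXA9_KO, and 20.2% and 15.3% in SAFB_KO, and the counts of these short lists are given beside those shares. In HOXA9_KO, 1 of 6 tested genes of the H/ACA particle rose and 3 fell, as did 2 and 5 of 11 for the C/D particle. NOP10 (0.41) rose and DKC1 (−0.20), the pseudouridine synthase dyskerin, fell. FBL (0.42), the methyltransferase fibrillarin, rose and NOP58 (−0.38) fell. Of the factors that act at snRNA promoters 3 rose and 7 fell of 13, of the RNA polymerase III machinery 4 and 4 of 14, and of the Integrator complex, which cuts the 3′ ends of snRNAs, 2 and 3 of 14. BDP1, a subunit of TFIIIB, fell by 0.50 and MAF1, a repressor of RNA polymerase III, rose by 0.38. Of the Sm and SMN assembly genes 3 rose and 8 fell of 21, of the U6 maturation genes 3 and 5 of 16, and of the trimming and decay genes 3 and 6 of 11. LSM8, of the ring that binds the end of U6, fell by 0.57, and USB1, which trims that end, rose by 0.68. XRN1 fell by 0.57 and ZCCHC8 by 0.60. In SAFB_KO the same lists gave 3 higher and 0 lower (H/ACA), 3 and 0 (C/D), 1 and 2 (promoter), 3 and 1 (RNA polymerase III), 2 and 1 (Integrator), 7 and 1 (Sm and SMN), 6 and 2 (U6 maturation) and 2 and 3 (trimming and decay). In MEIS1_KO 0 genes of these lists were higher, and 10 were lower, at most 3 in a list. The lists held 6 to 21 tested genes each, and over all genes 4.97% were called higher and 3.84% lower.

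Short noncoding RNAs of other biotypes were read in the same way. Of 9 tested telomerase and Cajal body RNA genes, 8 rose in HOXA9_KO and 0 fell, among them SCARNA10 and SCARNA12, which are members. SCARNA5 rose by 2.58, SCARNA6 by 1.46 and TERC, the telomerase RNA, by 0.72, and SCARNA9 (−0.43) did not pass. SAFB_KO gave 3 higher and MEIS1_KO 2 higher, with 0 lower in either. Over all genes 27.6% were called higher in HOXA9_KO, 20.2% in SAFB_KO and 4.97% in MEIS1_KO. The shares called lower were 29.9%, 15.3% and 3.84%. Of 4 tested RNA polymerase III transcripts 2 rose in HOXA9_KO, RN7SL2 (1.10), an RNA of the signal recognition particle, and VTRNA1-1 (1.07), a vault RNA. RMRP (0.10), the RNA of RNase MRP, and VTRNA1-3 (0.40) did not pass.

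The 2 sets of control libraries differed from each other in many members. Because mitochondrial ribosomal RNA was present in the first experiment only, levels are compared here as reads per 1000000 nuclear protein-coding reads. RNU4-1 had 0.888 ± 0.259 (SD, n = 3) in NT and 23.7 ± 4.39 (n = 4) in NT_MEIS1ex, and RNU4-2 had 1.21 and 19.9. SNORA73B had 40.8 and 245, SNORA53 0.312 and 3.20, SNORA74A 0.341 and 2.90, and SNORA23 0.812 and 6.59. SNORA12 went the other way, with 40.3 in NT and 6.34 in NT_MEIS1ex. The RF00003 gene ENSG00000275405.1 had 4.77 in NT and was at 0 reads in all 8 libraries of the second experiment, against 1301 reads in the first, and 5 members in all were at 0 throughout the second experiment and none throughout the first. Cells, extraction, depletion and sequencing all differ or may differ between the experiments and cannot be told apart.

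**Figure D5:**
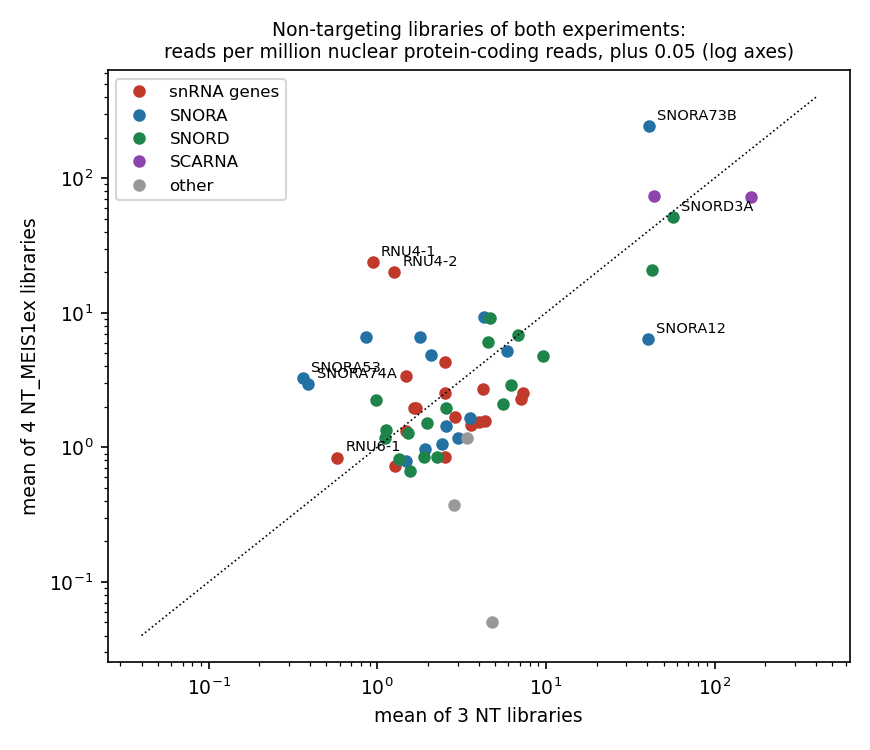
Reads per 1000000 nuclear protein-coding reads (both axes log, 0.05 added) in NT (horizontal) and NT_MEIS1ex (vertical) for members with 500 or more reads, with a line of equality. RNU4-1, RNU4-2 and SNORA73B lie far above the line and SNORA12 far below it.

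Most members were too rare to test. Of the 654, 443 were tested in neither experiment, with a median of 39 and at most 132 reads over 17 libraries, and together they held 5.58% of the member reads. At the edge of the rule, 20 genes had exactly 20 reads and were members, and 14 genes had 19 and were not. Members antisense to a gene had a median of 42.5 reads and those inside a same-strand gene 67. Of the 2852 genes 1589 were at 0 in every library. Among them were RNU2-1 (U2), RNU12, RNU7-1, RN7SK, SNORD13, SNORD118 and SNORA73A, RNAs found in most cells. All of these but RNU2-1 and SNORD13 share exon bases with another gene on the strand. Exon bases shared in this way were found for 27 members (4.13%) and for 210 of the 1589 genes at 0 (13.2%), and 28 members (4.28%) have the sequence of another snRNA or snoRNA gene. A value of 0 in these tables is therefore only a listing at 0 and no measure of absence.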

How the data were processed

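The deposited files hold raw counts of reads per gene, 1 file for each of the 17 libraries. The authors made these counts with Trim Galore, STAR 2.7.10a, HTSeq 1.99.2 and bedtools on hg38, per the submitters' processing notes. For the annotation release, the strand setting and reads with several alignments, no setting is recorded in the labels or files used here. The gene identifiers were matched to GENCODE 29, which gave biotypes, positions and hosts, and sequences were taken from that annotation on GRCh38. Some sequences and marker genes are not reported here.

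Comparisons used edgeR 4.0.16 in R 4.3.3 with limma 3.58.1 (quasi-likelihood test, robust, TMM scaling, filterByExpr with a count of at least 10 and a total of 15) on all genes of each experiment. A call is an adjusted p under 0.05 (Benjamini-Hochberg over all genes tested). The scripts were tested on simulated counts. The differences of effects were fitted on all 17 libraries together. The 3 groups of the first experiment shared 1 estimate of the spread. The host was the gene containing the member on its strand. Tables and alignments of sequences used Python 3.11.15, pandas 2.3.3 and edlib 1.3.9.post1, and figures matplotlib 3.10.9. The members and lists were chosen with earlier results of these data known.

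Named in each knockout comparison were RNU6-1, the 8 largest called rises and falls with a mean of 1 CPM or more in the higher group, the 10 members of highest mean CPM, the tested snRNA and SCARNA members (given in part by counts and ranges), and the host or neighbour of each. For the other comparisons the 5 largest each way were named, up to 4 genes of each pathway list, and the 5 genes most like RNU6-1 (log2 of CPM plus 0.5). Members named outside this rule, such as SNORA74D, SNORD3C, SNORD15B, SNORA11B, SNORD11, SNORD11B, SNORA55, SNORA75 and SNORA30, were chosen after their values were seen. The alternatives were DESeq2 1.42.0, limma-voom, other scalings and filters, a replicate block and leaving out each library.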

Additional observations from a re-analysis of the deposited data

Results flagged for a closer look

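The effect of the HOXA9 knockout differed from that of the MEIS1 knockout by a test of the difference itself (edgeR's quasi-likelihood test with Benjamini-Hochberg adjustment over all genes, 17 libraries). On the log2 scale the difference was 8.35 for RNU6-1 (adjusted p = 4.48e-19), 4.33 for SNORA53 (8.19e-14), 3.95 for SNORA74A (2.20e-11), 2.17 for SNORD3A (2.21e-06) and 1.96 for RNU1-1 (0.000698). In the other direction it was −4.43 for RNU6-821P (0.00141), −3.11 for SNORD11B (0.00352), −3.07 for SNORA11B (0.0285), −2.93 for RNU7-84P (0.0295) and −2.77 for RNU4ATAC16P (0.0261). The same test of the SAFB knockout against the MEIS1 knockout gave 2.78 for RNU6-1 (adjusted p = 1.38e-05) and 1.80 for SNORA59A (0.0495). It gave −3.11 for RNU4ATAC16P (0.0284), −2.53 for RNU7-18P (0.0356), −2.19 for SNORD11B (0.0489), −2.08 for RNVU1-3 (0.0366) and −2.06 for RNU6-1053P (0.0401). Over all genes 24.5% were higher and 19.7% lower in the first of these tests, and 12.4% and 8.49% in the second. Relative to its host, RNU6-821P was rarer in NT_MEIS1ex (log2 ratio −5.49) than in NT (−3.67). So were SNORD11B (−10.3 and −7.99) and SNORA11B (−9.42 and −7.04). Such rare members pass the filter through the group in which they are high. Knockout and experiment cannot be told apart in the size of these differences. The knockouts of the first experiment share their NT libraries, so the differences are not independent of each other.

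In 4 of the 48 groups of 4 libraries examined, 1 library stood apart from the other 3 by Dixon's criterion, which chance meets in about 1 of 20 groups. RNVU1-27 had a library at 2.03 CPM in NT_MEIS1ex (nearest 2.46) and one at 2.23 CPM in MEIS1_KO (nearest 2.80). SNORD116-13 had a library at 2.25 CPM in MEIS1_KO (nearest 2.89), and SNORD17 had a library at 22.3 CPM in NT_MEIS1ex (nearest 18.9).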

How the results depend on the processing

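None of the named members that were called changed direction under an alternative, while small values that passed no test can change sign with the scaling. Of the named members that were called, 28 of 51 in HOXA9_KO, 4 of 20 in SAFB_KO, 1 of 1 in MEIS1_KO, 10 of 13 in HOXA9_KO against SAFB_KO, 11 of 18 in HOXA9_KO minus MEIS1_KO and 1 of 7 in SAFB_KO minus MEIS1_KO stayed called in every alternative that gave a value. RNU6-1 in HOXA9_KO ran from 6.22 to 6.71 on the log2 scale. Its fall in MEIS1_KO had no value with DESeq2, which gave no adjusted p, nor with a mean of at least 1 CPM. Scaling to nuclear protein-coding reads gave 65 members lower in HOXA9_KO (42 in the report), 3 higher and 28 lower in SAFB_KO (10 and 14), 17 lower in HOXA9_KO against SAFB_KO (11), 38 lower in HOXA9_KO minus MEIS1_KO (22) and 1 higher in SAFB_KO minus MEIS1_KO (2). Over all genes the share of calls that were higher then went from 56.9% to 23.6% in SAFB_KO, from 56.5% to 68.5% in MEIS1_KO, from 49.4% to 29.5% in HOXA9_KO against SAFB_KO, from 55.5% to 19.4% in HOXA9_KO minus MEIS1_KO and from 59.3% to 14.9% in SAFB_KO minus MEIS1_KO. With this denominator the log2 ratios of summed reads in HOXA9_KO were 0.75 (SCARNA), 0.30 (SNORA), 1.15 (SNORD), 0.97 (snRNA genes), 0.33 (those without RNU6-1), −0.92 (snRNA copies) and −1.06 (snoRNA genes without a symbol), against 0.57, 0.12, 0.97, 0.79, 0.14, −1.11 and −1.25. A mean of at least 1 CPM, which tests fewer members, gave 5 lower in HOXA9_KO, 6 higher and 5 lower in SAFB_KO, 0 lower in MEIS1_KO, 3 lower in HOXA9_KO against SAFB_KO, 1 lower in HOXA9_KO minus MEIS1_KO, and 1 higher and 1 lower in SAFB_KO minus MEIS1_KO. With no filter there were 3 lower in MEIS1_KO, 34 lower in HOXA9_KO minus MEIS1_KO and 13 lower in SAFB_KO minus MEIS1_KO. DESeq2 gave 0 lower in MEIS1_KO, 7 lower in HOXA9_KO against SAFB_KO and 3 lower in SAFB_KO minus MEIS1_KO. limma-voom gave 2 lower in MEIS1_KO and 1 higher in SAFB_KO minus MEIS1_KO, where RLE scaling gave 4 higher. A fit of only the groups compared gave 5 lower in HOXA9_KO against SAFB_KO. For the changes by scaling, tool and fit the cause was not tested.

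Leaving out each library in turn gave 27 to 32 members higher and 28 to 50 lower in HOXA9_KO, 1 to 11 higher and 9 to 15 lower in SAFB_KO, 0 higher and 1 to 2 lower in MEIS1_KO, and 21 to 26 higher and 7 to 14 lower in HOXA9_KO against SAFB_KO. It gave 17 to 23 higher and 12 to 25 lower in HOXA9_KO minus MEIS1_KO and 1 to 3 higher and 4 to 10 lower in SAFB_KO minus MEIS1_KO. Same-numbered libraries showed little shared deviation (correlations of −0.0156 to 0.0434 in the first experiment and −0.195 to 0.0953 in the second). The labels do not say whether the numbers pair libraries, and correlations over so few libraries cannot settle it. With a replicate block the counts were 31 higher and 40 lower in HOXA9_KO, 10 and 14 in SAFB_KO, 0 and 1 in MEIS1_KO, and 4 lower in SAFB_KO minus MEIS1_KO, the last against 8. Low counts limit the rest: 443 of 654 members were tested in neither experiment.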
